A study of Arabidopsis thaliana with 6 samples.

Results

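In Arabidopsis thaliana leaves, 5 LINE-related loci separate the kyp mutant from the cmt3 mutant. They are AT1G45030, AT1G45035, AT2G15510, AT3G43575 and AT3G44035, of 30361 loci on the array. They were picked by their array intensities because their level differed between the mutants. Their differences are therefore given below as descriptions with errors, and no test is reported for them. RNA from young leaves was hybridized in 1 colour (Cy3) to 6 NimbleGen arrays. Wild type Col-0, the kyp mutant and the cmt3 mutant had 2 arrays each. The plants were 4 weeks old, were kept on soil under long days and received no treatment. The labels name no mutant allele and do not tie replicate arrays to separate plants, so p-values measure the spread between arrays, which may be technical.

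LINEs are retrotransposons without long terminal repeats. They spread by copying their RNA into DNA with a reverse transcriptase that they encode, and plants keep most copies silent. KYP (also SUVH4) methylates histone H3 at lysine 9. CMT3 is a chromomethylase that binds this mark and methylates cytosines in CHG contexts, and the methylated DNA in turn recruits KYP and its relatives, so the enzymes act in a loop.

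Values are intensities that the authors normalized by RMA (robust multi-array average), and log2 differences come from 1 limma fit to all 6 arrays, with limma's standard error (SE). Array medians lay between 946 and 997 intensity units, and replicate arrays had a Pearson's r of 0.986 to 0.987 across loci. By the image names, slide 1 held kyp replicate 1 with the wild type arrays, and slide 2 held kyp replicate 2 with the cmt3 arrays. Hence kyp and cmt3 can be compared within slide 2, kyp and wild type within slide 1, and cmt3 and wild type within neither. The leaf genes RBCS1A, CAB1, RCA, LHCB2.1 and PSBO1 had intensities at or above those of 99.6% of the loci on every array, while the flower genes AP3 and PI, the root genes EXPA7 and RHD6, the seed genes CRA1 and SESA1 and the meristem genes KNAT1 and STM were at or above at most 39.9%. The flower gene AG lay higher, at 43.1% to 47.7%. CMT3 itself fell 3.13-fold in cmt3 (log2 difference -1.65 ± 0.09 SE, adjusted p = 0.0159, limma). The call was lost with the slide (adjusted p = 0.319) or the replicate number (0.0637) as a block. Its log2 difference was -1.67 to -1.63 when each array was left out in turn, and -1.56 with the slide as a block. KYP stood at -0.24 ± 0.10 in kyp (adjusted p = 0.515), which checks nothing about the kyp label without the allele.

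All coordinates are those of the gene models marked Release 6 in the files. AT1G45030 (chromosome 1, 17031664 to 17032035) is a pseudogene of 372 bases, described as similar to a putative non-LTR reverse transcriptase of rice. AT1G45035 (17032053 to 17032822) begins 17 bases after it. This second pseudogene, 770 bases long, is described only as a hypothetical protein, so its link to LINEs is its position and not its annotation. By position it is also near a copia-like retrotransposon, AT1G45020, which ends 892 bases before it. AT2G15510 (chromosome 2, 6773704 to 6777758), AT3G43575 (chromosome 3, 15504448 to 15508779) and AT3G44035 (chromosome 3, 15819418 to 15821637) are each described as a LINE, by similarity to L1 elements or LINE open reading frames of mouse or rat. They are 4055, 4332 and 2220 bases long, against a median of 3774 bases for the 303 array loci whose description names a LINE or a non-LTR element. AT3G43575 and AT3G44035 lie 311 kb apart on the same chromosome. The RefSeq annotation of TAIR10.1 lists all 5 as pseudogenes. Each intensity summarises 2 probes for the first 3 loci and 3 probes for both loci of chromosome 3. Whether related copies or the opposite strand add to a signal was not tested, as no probe sequence was used here.

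AT1G45030 showed the largest difference of the 5, with cmt3 far above kyp. Its intensity was 102 and 84.3 in wild type, 228 and 178 in kyp, and 5966 and 7512 in cmt3. The cmt3 arrays stood clear of the other 4, and the kyp arrays lay slightly above wild type without overlap. In cmt3 it was 72.3-fold above wild type (log2 difference 6.18 ± 0.21 SE), in kyp 2.17-fold (1.12 ± 0.21), and the difference between kyp and cmt3 was -5.06 ± 0.21. By absolute size this was number 4 among all loci and number 1 among the LINE or non-LTR loci.

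AT1G45035 followed the same course at lower intensity. It read 20.6 and 21.7 in wild type, 39.4 and 42.0 in kyp, and 903 and 1045 in cmt3. In wild type only 2.66% and 3.48% of the loci on the array were as dim or dimmer, and in cmt3 49.3% and 50.5%. The log2 difference from wild type was 5.52 ± 0.12 SE in cmt3 (46.0-fold) and 0.94 ± 0.12 in kyp (1.92-fold), and kyp stood 23.9-fold below cmt3 (-4.58 ± 0.12).

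AT2G15510, the LINE of chromosome 2, also belonged with cmt3. Its intensity was 31.0 and 26.1 in wild type, 90.0 and 93.0 in kyp, and 1478 and 1772 in cmt3. The 3 genotypes formed 3 separate levels, with kyp closer to wild type than to cmt3. The log2 difference from wild type was 5.83 ± 0.15 SE in cmt3 (56.9-fold) and 1.69 ± 0.15 in kyp (3.22-fold), which left kyp 17.7-fold below cmt3 (-4.15 ± 0.15).

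AT3G43575 had the smallest separation. It read 43.0 and 44.7 in wild type, 105 and 100.4 in kyp, and 459.5 and 441 in cmt3. The paired arrays of each genotype were close together, with an SD of 0.04 or 0.05 on the log2 scale (n = 2), so the 3 levels do not overlap although the steps between them are modest. The log2 difference from wild type was 3.36 ± 0.09 SE in cmt3 (10.3-fold) and 1.23 ± 0.09 in kyp (2.34-fold), and kyp was 4.38-fold below cmt3 (-2.13 ± 0.09). Its absolute difference between the mutants was number 177 of all loci by size.

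AT3G44035 ran the other way. Its intensity was 53.1 and 35.7 in wild type, 2835 and 3059 in kyp, and 173 and 202 in cmt3. Here kyp held the high level, and cmt3 lay between wild type and kyp with no overlap on either side. The log2 difference from wild type was 6.08 ± 0.23 SE in kyp (67.7-fold) and 2.101 ± 0.23 in cmt3 (4.29-fold), and kyp stood 15.8-fold above cmt3 (3.98 ± 0.23). The kyp arrays, which were on different slides, read 11.47 and 11.58 on the log2 scale.

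**Figure D1:**
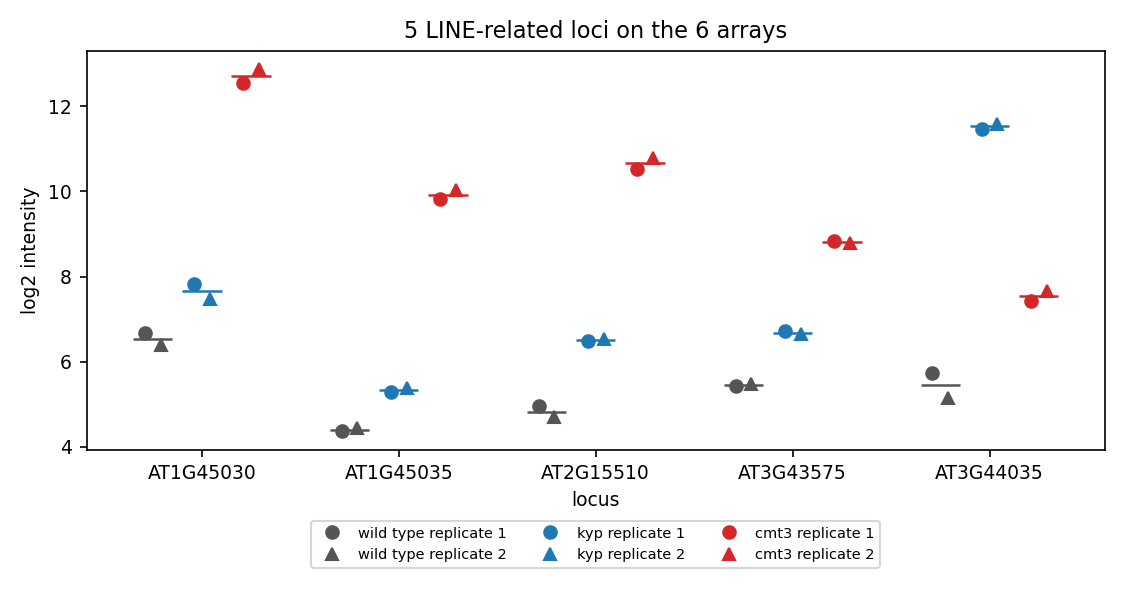
The vertical axis is log2 intensity and each group of points is 1 locus, with wild type in grey, kyp in blue, cmt3 in red, circles for replicate 1, triangles for replicate 2 and bars for the mean of 2 arrays. In AT1G45030, AT1G45035, AT2G15510 and AT3G43575 cmt3 is highest, in AT3G44035 kyp is highest, and wild type is lowest throughout.

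In all 5 loci the mutant with the smaller change still had both arrays above both wild type arrays. The gap between the nearest arrays was 0.81 for AT1G45030, 0.86 for AT1G45035, 1.54 for AT2G15510, 1.17 for AT3G43575 and 1.70 for AT3G44035 on the log2 scale. Expressed as a share of the larger log2 rise, the smaller one came to 18.1%, 17.1%, 28.9%, 36.6% and 34.6%, in the same order. Arrays of kyp lay wholly above wild type at 5 of the 5 loci and at 23.0% of all loci, and arrays of cmt3 at 5 of the 5 and at 32.4% of all loci. Nothing is read from these counts, since the loci were picked on the same arrays. Among the 7591 loci in the lowest 25% of wild type intensities, where 4 of the 5 loci fall, the median log2 difference from wild type was 0.06 in kyp and 0.06 in cmt3.

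Between the mutants, the arrays did not overlap and the difference was at least 4-fold at all 5 loci, against 0.708% of all loci. This count follows from the way the loci were picked. Within slide 2, which holds 1 kyp array, the difference between kyp and cmt3 was -5.23 for AT1G45030, -4.53 for AT1G45035, -4.12 for AT2G15510, -2.17 for AT3G43575 and 4.03 for AT3G44035. Within slide 1, the rise in kyp over wild type was 1.298, 0.90, 1.66, 1.26 and 6.03, in the same order. The rise in cmt3 over wild type has no value within a slide. With the slide as a block, which links them through kyp, it was 6.53, 5.43, 5.78, 3.43 and 1.99.

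The dim levels in wild type bear on every fold given here. AT1G45035, AT2G15510, AT3G43575 and AT3G44035 lay below the 25th percentile of the wild type means, at an intensity of 73.4, and the files give no background or detection values. The folds are folds of intensity and can understate or overstate the change in transcript, which was not tested. With 50 intensity units added before the log, the rise in kyp became 0.82 for AT1G45030, 0.35 for AT1G45035, 0.85 for AT2G15510 and 0.70 for AT3G43575. The offset could not reverse a direction, as the kyp and wild type arrays do not overlap at these 4 loci. At all but AT1G45030 the log2 difference, taken as a ratio of log2 values, fell by more than 1.5 times. The larger rises became 5.56, 3.84, 4.41 and 2.41 at these 4 loci in cmt3, and 4.99 at AT3G44035 in kyp, each of them a smaller fold by more than 1.5 times. The rise of AT3G44035 in cmt3 became 1.33.

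The loci around the members were then examined, since they were not picked for their values. The 4 nearest array loci on each side of each member, 32 loci once the members themselves are set aside, had a median log2 difference between kyp and cmt3 of -0.15, against -0.03 for all loci. None of the 32 was called in that comparison (limma; 6, or 18.8%, had an unadjusted p under 0.05, against 12.5% of all loci), and none in kyp against wild type (5, or 15.6%, unadjusted, against 10.2%). In cmt3 against wild type 3 of the 32 were called, all higher, where 0.741% of all loci were called in either direction and 0.560% higher. At an unadjusted p under 0.05 the count there was 5 of 32, or 15.6%, below the 23.0% of all loci. Each of the 3 called loci is the array locus next to a member. AT1G45020 and AT2G15520, but not AT3G44040, lie in the lowest 25% of wild type means. Of the 7591 loci in that range, 1.40% were called in cmt3 against wild type and 1.36% were called higher.

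On chromosome 1 the neighbour is AT1G45020 (17026848 to 17031160), a copia-like retrotransposon that ends 503 bases before AT1G45030. Its intensity was 38.0 and 80.3 in wild type, 96.7 and 144.7 in kyp, and 3509 and 3588 in cmt3. The 3 consecutive array loci, AT1G45020, AT1G45030 and AT1G45035, thus had their high level in cmt3. AT1G45020 rose 64.2-fold in cmt3 (6.005 ± 0.42 SE, adjusted p = 0.0246, limma), stood at 1.10 ± 0.42 in kyp (adjusted p = 0.497), and differed between the mutants by -4.91 ± 0.42 (adjusted p = 0.145). The next locus on the other side, the pseudogene AT1G45040, begins 115 bases after AT1G45035 and stood at 0.69 ± 0.15 in cmt3 (adjusted p = 0.112) and 0.11 ± 0.15 in kyp (adjusted p = 0.844). It read 40.2 and 34.1 in cmt3 and between 22.6 and 27.0 on the other arrays.

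On chromosome 2, AT2G15520 (6777866 to 6779317), of unknown function, begins 107 bases after AT2G15510. It read 27.5 and 23.0 in wild type, 31.1 and 22.2 in kyp, and 215 and 229 in cmt3. The kyp arrays were not set apart from wild type, unlike those of AT2G15510. AT2G15520 rose 8.83-fold in cmt3 (3.14 ± 0.21 SE, adjusted p = 0.0227, limma), stood at 0.06 ± 0.21 in kyp (adjusted p = 0.944), and differed by -3.08 ± 0.21 between the mutants (adjusted p = 0.0982). AT2G15500, on the other side, stood at -0.24 ± 0.31 in cmt3 and -0.87 ± 0.31 in kyp, and neither passed (adjusted p = 0.689 and 0.475).

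On chromosome 3, AT3G44040 (15823362 to 15824941), of unknown function, begins 1724 bases after AT3G44035. Its intensity was 419 and 544 in wild type, 2306 and 1848 in kyp, and 1865 and 2241 in cmt3. Both mutants lay above wild type, and their arrays overlapped with each other, unlike those of AT3G44035. The log2 difference from wild type was 2.098 ± 0.21 SE in cmt3 (adjusted p = 0.0462, limma) and 2.11 ± 0.21 in kyp (adjusted p = 0.0976), and between the mutants 0.01 ± 0.21 (adjusted p = 0.985). AT3G44030, a pseudogene 1482 bases before AT3G44035, stood at 0.50 ± 0.16 in kyp and 0.36 ± 0.16 in cmt3 (adjusted p = 0.448 and 0.269).

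AT3G43575 had no called neighbour. AT3G43573, another LINE, ends 1511 bases before it and stood at 1.07 ± 0.30 SE in cmt3 and 0.48 ± 0.30 in kyp (adjusted p = 0.150 and 0.646, limma), and AT3G43580, which begins 5200 bases after it, stood at 0.10 ± 0.58 and -0.33 ± 0.58 (adjusted p = 0.940 and 0.887). AT3G43575 sits among the most transposable elements: of the 40 nearest array loci, 20 are described as transposable elements and 7 as LINE or non-LTR loci. For the other 4 members the count of transposable elements was 5, 5, 4 and 6 of 40, compared with 8.12% of all loci. The calls of the neighbours in cmt3 were not stable. With the replicate number as a block AT1G45020 (adjusted p = 0.0525, limma), AT2G15520 (0.0608) and AT3G44040 (0.104) lost theirs. When each array was left out in turn, their log2 rises in cmt3 were 5.47 to 6.54, 3.01 to 3.27 and 1.91 to 2.29, in the same order. Robust moderation (adjusted p = 0.0574) and quantile normalization (0.0519) ended the call of AT3G44040 too, within a range of 0.0113 to 0.408 over the alternatives. With the slide as a block no locus on the array was called in any comparison.

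**Figure D2:**
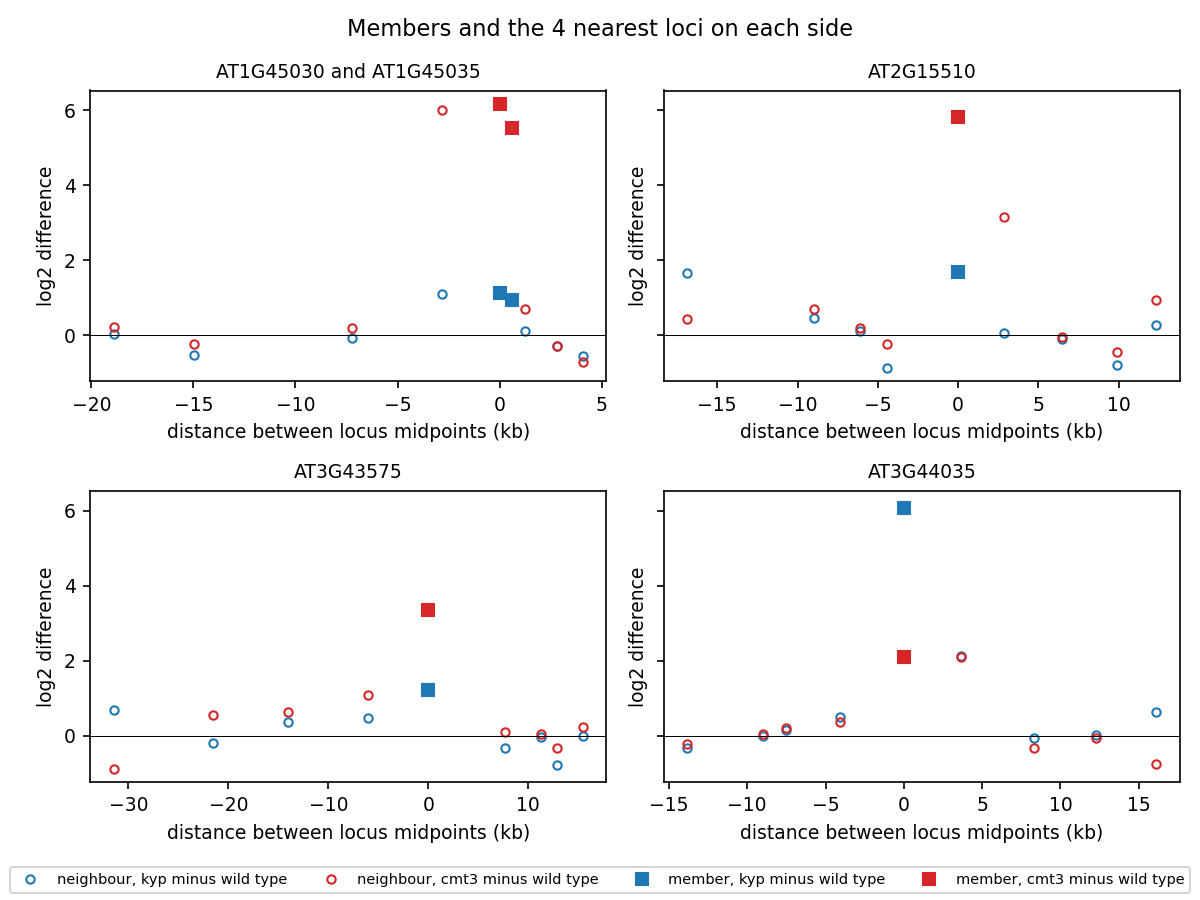
Each panel centres on 1 member, with the distance between locus midpoints in kb on the horizontal axis and the log2 difference from wild type on the vertical axis, blue for kyp and red for cmt3, squares for members and open circles for the 4 nearest loci on each side. AT1G45020 and AT2G15520 rise with the members beside them in cmt3 (6.005 and 3.14), and AT3G44040 stands at 2.11 in kyp and 2.098 in cmt3.

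The remaining LINE or non-LTR loci, 299 in number, were mostly dim in wild type, with 210 in the lowest 25% of wild type means. Their median log2 difference was -0.05 between kyp and cmt3 (-0.03 over all loci), 0.07 in kyp against wild type (0.00 over all loci) and 0.11 in cmt3 against wild type (0.03 over all loci). None of the 299 was called between the mutants at an adjusted p under 0.05 (limma, Benjamini-Hochberg over all loci), where 0.0296% of all loci were. The members had been taken out because their level differed between the mutants, while the share of all loci includes them. The absence of a call among the 299 depends on that pick, so nothing is read from it. At an unadjusted p under 0.05 the count was 48 (16.1%), against 12.5% of all loci. In kyp against wild type 2 of the 299 were called higher and 0 lower, or 0.669%, against 0.105% of all loci in either direction, and 16.4% against 10.2% had an unadjusted p under 0.05. In cmt3 against wild type 17 were called higher and 0 lower, or 5.69%, against 0.741% of all loci. The share with an unadjusted p under 0.05 was there 23.4%, or 70 loci, close to the 23.0% of all loci. Dim loci are a nearer background: of the 7591 in the lowest 25% of wild type, 0.237% were called in kyp and 1.40% in cmt3. Of the 210 LINE or non-LTR loci in that range, 0 were called in kyp and 13 (6.19%) in cmt3. The members were left out of the 210 but not of the 7591. Of the 56 other loci described by a reverse transcriptase without a named element family, 0 were called in any of the 3 comparisons, and 7, 3 and 7 had an unadjusted p under 0.05 (kyp against cmt3, kyp and cmt3 against wild type).

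When size was used in place of the call, 12 of the 299 other LINE or non-LTR loci differed at least 4-fold between the mutants without overlap of their arrays, 11 with cmt3 higher and 1 with kyp higher. Over all loci the balance was 0.296% with cmt3 higher and 0.412% with kyp higher. Dim loci leaned towards cmt3 in general. Among the 7591 loci in the lowest 25% of wild type, 58 had cmt3 higher and 11 had kyp higher. For the 210 LINE or non-LTR loci in that range the counts were 9 and 0. The counts of the 299 and the 210 leave out the members, which were picked for such a difference. The 1 locus of the 299 with kyp higher was AT5G41755, which is named here after its values were seen. At AT5G41755 the difference came from a low level in cmt3, where it read 65.3 and 12.8 against 160 and 220.3 in wild type and 167 and 134 in kyp. None of the 299 thus had, by this measure, the order of AT3G44035, with kyp above both other genotypes. Below 4-fold that order did occur. AT1G33180, also named after its values were seen, read 53.8 and 40.4 in wild type, 98.3 and 99.0 in kyp, and 56.1 and 39.0 in cmt3.

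Among the LINE loci outside the 5, AT4G02490 had the largest difference between the mutants. It read 78.1 and 50.2 in wild type, 197 and 142 in kyp, and 2545 and 1637 in cmt3, a difference of -3.61 ± 0.35 SE between kyp and cmt3 (adjusted p = 0.193, limma). AT2G15380 (-3.44 ± 0.33, adjusted p = 0.192), AT5G47815 (-3.32 ± 0.27, adjusted p = 0.144), AT3G29078 (-2.99 ± 0.34, adjusted p = 0.211) and AT2G45230 (-2.91 ± 0.22, adjusted p = 0.134) followed. All of these stood highest in cmt3 and were called there against wild type, at 32.6-fold, 21.4-fold, 10.9-fold, 162-fold and 11.2-fold. In kyp they ranged from 1.09-fold (AT5G47815) to 20.4-fold (AT3G29078) above wild type, and none was called. AT2G15380 lies on chromosome 2 like AT2G15510, at 6707963 to 6713788.

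Among the other LINE loci called higher than wild type, those with the largest rises in either mutant had both arrays of the other mutant above wild type as well. These were AT3G29078, described above, and the 5 given here. AT5G07215 was called in kyp (3.50 ± 0.15 SE, adjusted p = 0.0177, limma) and in cmt3 (6.08 ± 0.15, adjusted p = 0.00256). It read 127 and 135 in wild type, 1684 and 1309 in kyp, and 8845 and 8862 in cmt3, so its cmt3 rise of 6.08 stands beside 6.18 at AT1G45030, and its kyp rise of 3.50 beside 1.12 there. AT3G62725 rose 7.93-fold in kyp and 7.64-fold in cmt3 (adjusted p = 0.0177 and 0.00905), with a difference of 0.05 ± 0.13 between them (adjusted p = 0.892). In cmt3 AT1G22560 (5.22 ± 0.25, adjusted p = 0.0105), AT2G13460 (5.07 ± 0.34, adjusted p = 0.0230) and AT2G41580 (5.03 ± 0.28, adjusted p = 0.0159) also rose. In kyp these 3 stood at 3.42, 4.68 and 3.18 and did not pass (adjusted p = 0.0610, 0.0610 and 0.0815). The contrast with wild type shares its wild type arrays between the mutants, so an error in those arrays moves both values alike. AT5G07215 kept its call in cmt3 without any 1 array (adjusted p from 0.0252 to 0.0477) and lost it in kyp without each (0.0881 to 0.161). The other calls named in this paragraph and the one before were lost without at least 4 of the 6 arrays, taken singly (adjusted p from 0.0325 to 0.243).

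**Figure D3:**
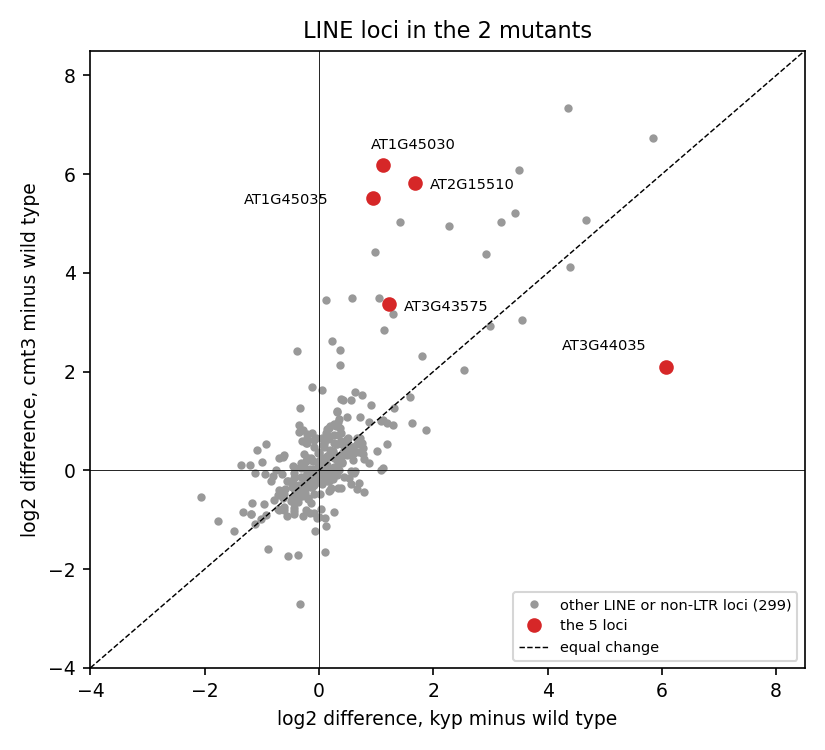
Each point is 1 locus, with its log2 difference from wild type in kyp on the horizontal axis and in cmt3 on the vertical axis. The 5 loci are red, the 299 other LINE or non-LTR loci are grey, and both axes share the wild type arrays; AT3G44035 stands alone at 6.08 and 2.101, while AT1G45030, AT1G45035, AT2G15510 and AT3G43575 lie above the dashed line of equal change.

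The pattern of each member was compared with every other locus by the Euclidean distance over the 6 arrays of log2 intensity minus the wild type mean. Among the members, AT1G45030, AT1G45035 and AT2G15510 lay close together, at distances of 1.04, 0.98 and 1.16. AT3G43575 was 3.09 to 4.01 from them, and AT3G44035 7.11 to 9.09 from the other 4. The distance depends on the size of a change as well as on the order of the genotypes. AT3G43575 has the same order as the first 3, with a smaller rise in cmt3 (3.36). Outside the members, the nearest loci to AT1G45030 were its neighbour AT1G45020 (1.21), the copia-like AT1G16660 (1.54) and the pseudogene AT5G33250 (1.59). Those of AT1G45035 were the copia-like AT2G19840 (1.01), AT5G45570, annotated as a cysteine-type peptidase (1.07), and AT1G45020 (1.07). AT2G15510 was nearest to AT5G33250 (0.79), AT5G28810 of unknown function (1.23) and AT1G45020 (1.34). For AT3G43575 the list was AT2G15800 of unknown function (0.47), the copia-like AT4G10980 (0.67) and the Mutator-like AT5G26345 (0.68). None of these loci is described as a LINE.

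AT3G44035 had no close counterpart. Its nearest loci were AT3G60950 at 2.66, AT1G53480 (MRD1) at 2.92 and the copia-like AT3G60170 at 3.21, all farther away than any locus listed for the other 4 members. AT3G60950 read 206 and 176 in wild type, 5926 and 3585 in kyp, and 1591 and 1823 in cmt3. AT3G60170 read 24.3 and 17.0 in wild type, 720.2 and 740.1 in kyp, and 404 and 328 in cmt3. In each of the 3 loci kyp stood above cmt3 without overlap, by 2.71-fold, 3.95-fold and 2.01-fold, none of which passed the test (adjusted p = 0.359, 0.442 and 0.361, limma), against 15.8-fold at AT3G44035.

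**Figure D4:**
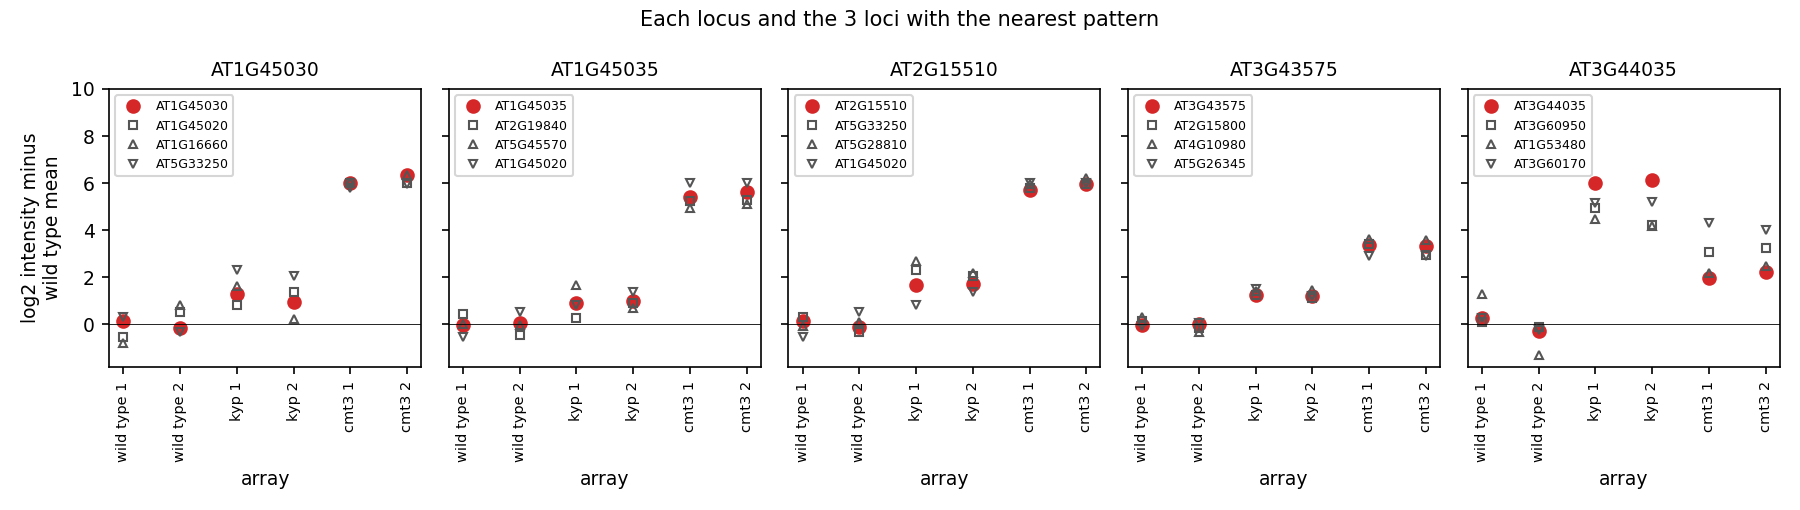
Each panel shows 1 member (red circles) and the 3 loci with the nearest pattern (open grey symbols) on the 6 arrays, as log2 intensity minus the wild type mean. The grey symbols follow AT3G43575 most tightly, at distances of 0.47 to 0.68, and stand farthest from AT3G44035, at 2.66 to 3.21. These distances also depend on the size of the change, which is smaller at AT3G43575.

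The genes of the silencing pathway differed between the mutants by -0.49 to 1.79 on the log2 scale. Of 20 listed genes, all on the array, 0 were called between kyp and cmt3 (limma; 4, or 20%, had an unadjusted p under 0.05, against 12.5% of all loci) and the median log2 difference was 0.01. CMT3 stood at 1.79 ± 0.09 SE there (adjusted p = 0.0581), from its low level in cmt3, and KYP at -0.37 ± 0.10 (adjusted p = 0.361). Against wild type none was called in kyp (2, or 10%, had an unadjusted p under 0.05, against 10.2% of all loci), and CMT3 alone was called in cmt3, as lower (6, or 30%, unadjusted, against 23.0%). The histone methyltransferase genes SUVH5 and SUVH6, relatives of KYP, stood at -0.15 and -0.01 between the mutants, and the chromomethylase gene CMT2 at 0.13. IBM1, which encodes a histone demethylase that keeps genes free of CHG methylation, stood at -0.61 in kyp and -0.77 in cmt3 (adjusted p = 0.333 and 0.0882).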

How the data were processed

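Per the labels, the deposited values are RMA-normalized intensities of Cy3-labelled cDNA on a linear scale. RMA settings and software: not given in the sources used here. The authors' series table was identical, with 0 values that differed. Members, lists and tests were chosen with earlier results of these data known.

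Intensities were taken to log2 and fitted in R 4.3.3 by limma 3.58.1 (lmFit and eBayes), 3 genotypes in 1 fit with 3 residual degrees of freedom and no filter, with Benjamini-Hochberg adjustment over 30361 loci. The fit was tested on simulated data. The number of arrays limits the precision. LINE or non-LTR loci were found by description in the files. Symbols come from RefSeq (TAIR10.1), which matched 29976 loci.

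Named loci were the members, CMT3, KYP, the 3 nearest patterns and the adjacent loci of each member, called neighbours, the 5 other LINE loci with the largest difference between the mutants and up to 5 called risers in each mutant. Alternatives were scaling, an offset of 50, a filter of the lowest 25%, moderation, the slide or the replicate number as a block, and each array left out. The standard errors deposited beside the intensities were not used, since their meaning is not stated. Same-numbered arrays of 2 genotypes had correlations of their deviations between -0.12 and 0.00, so the numbers were not taken as pairs. Sequences were not used here.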

Additional observations from a re-analysis of the deposited data

How the results depend on the processing

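The direction of every difference at the 5 loci, in all 3 comparisons, was kept under each of the 235 alternative values computed. Much of this was fixed in advance. The filter, the moderation settings, the replicate block and the series table cannot move a log2 difference. The groups do not overlap at these loci, so an offset or the loss of 1 array cannot reverse a direction. Nothing is therefore read from the count. Between kyp and cmt3, an offset of 50 gave -4.74 for AT1G45030, -3.49 for AT1G45035, -3.56 for AT2G15510, -1.71 for AT3G43575 and 3.66 for AT3G44035, because it compresses dim values, and centring the arrays gave -2.09 for AT3G43575. Leaving out 1 array gave -5.23 to -4.88, -4.68 to -4.47, -4.28 to -4.01, -2.17 to -2.10 and 3.87 to 4.09, in the same order. Counts of calls moved far more. For kyp against cmt3 the 9 calls over all loci became 36 with the offset, 17 without the lowest 25% and 24 with an intensity trend. The other LINE loci then had 5, 1 and 3, the neighbours 2 with the offset and 1 with the trend, and the silencing genes 1 under each of the 3. For kyp against wild type the 32 calls became 72, 63 and 85, those of other LINE loci 7, 7 and 8, and the neighbours had 1 with the trend. For cmt3 against wild type the 225 calls became 552, 502 and 2272, and with the trend other LINE loci had 26 and silencing genes 4. With the slide as a block 0 loci were called in any comparison. With the replicate number as a block (replicate block), the counts were 0, 0 and 69 over all loci, 0, 0 and 9 among other LINE loci, and 0 among neighbours and silencing genes. Both blocks leave 2 residual degrees of freedom. Without 1 array, 0 loci were called in kyp against cmt3 or against wild type, and in cmt3 against wild type 32 to 84 of all loci, 2 to 5 other LINE loci, 0 to 1 neighbours and 0 silencing genes. Dim levels near the floor and 2 arrays a genotype limit what can be resolved.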
